A study of Bos taurus with 8 samples.

Results

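Homeobox genes outside the HOX clusters were examined in MIRA-Seq libraries, a methylated-DNA pull-down with sequencing, of bovine dermal fibroblasts. The list named 47 developmental regulators of the DLX, MSX, NKX, BARX, EMX, VAX, EN, ParaHox (GSX, PDX, CDX), sine oculis (SIX2 to SIX6), IRX, MEIS, ONECUT and paired-like (OTX, PITX, PRRX, ALX) families. Members were found by gene symbol, and 44 of the 47 had at least 1 window, out of 26153 named genes; NKX6-2, EN2 and BARX1 were not analysed here. The 44 genes lay on 18 chromosomes and held 295 windows of 3Kb out of 902984 in the genome. Of these windows, 44 were the first of their gene by strand and 251 were others; DLX2, GSX2 and IRX3 had a single window. The first window held coding exon 1 in 33 genes, a later coding exon in 6 and no coding exon in 5, so it stands for the promoter only as far as the annotation reaches the gene start. Members of one cluster are neighbours on a chromosome, and all 44 genes were read from the same 8 libraries, so the genes are not replicates.

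The cultures came from skin biopsies of 4 Holstein (dairy) and 4 Angus (beef) heifers of one age, with 1 library per animal. The cells were at passage 5 and un-treated in both breeds. In MIRA-Seq, sonicated genomic DNA is bound by methyl-CpG binding proteins and the captured fragments are sequenced, so that more reads are obtained where more methylated CpG sites lie. A pull-down count therefore rises with both CpG density and methylation, and the libraries hold no expression values.

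Homeobox genes encode transcription factors that bind DNA through the homeodomain and set the identity of cells along the body axes and within organs. Many of their promoters lie in broad CpG islands, which in normal somatic cells are usually free of methylation and are held by Polycomb proteins where the gene is silent. Dermal fibroblasts of adult skin are known to retain a homeobox expression pattern of their site of origin.

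The libraries held 18691111 to 35525554 reads in windows, and levels were scaled to these totals as RPKM; 3 reads in a window correspond to 0.0281 to 0.0535 RPKM. The 1% of windows with the most reads took 46.8% to 72.4% of a library, and Holstein 1 (69.0%) and Angus 3 (72.4%) stood apart from the others. Holstein 1 was the lowest library in 18 of the 44 first windows and Angus 3 in 11, while Angus 4 was the highest in 15 and Holstein 4 in 11. The part of this concentration of reads in the values below was not tested, and each breed has 1 such library. First windows of 13 dermal fibroblast marker genes, such as COL1A1, PDGFRA and TWIST2, had a median of 0.0736 RPKM with 0 of 13 over 0.5 RPKM. Markers of other cell types were over it in 2 of 7 keratinocyte, 1 of 6 melanocyte, 1 of 4 endothelial, 2 of 4 muscle and 0 of 4 leukocyte genes, with list medians from 0.192 to 0.499 RPKM. The endothelial marker CDH5 was the highest of them at 0.964 RPKM, and TP63 of keratinocytes the lowest at 0.0349 RPKM. These are methylation values and give no count of cells of any type.

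Methylation at the first windows was low in most homeobox genes, as it was in most named genes. The first window had a median of 0.130 RPKM over the 44 genes, with quartiles of 0.0851 and 0.232. Over all 26153 named genes the median was 0.132 RPKM with quartiles of 0.0675 and 0.278. The study separates low from high methylation at 0.5 RPKM, scaled to matched reads and applied to promoters or gene bodies. Here single windows were scaled to reads in windows, which were fewer than matched reads in each library. In Holstein 1 they were 19772965 of 35207735, and in Angus 4 18691111 of 32038682. By this scaling 0.5 RPKM is a lower limit here than in the study, and the shares over it are not comparable with the study's. A level of 0.5 RPKM on the scale used here was passed by 3 of the 44 genes (6.82%) and by 12.6% of all named genes. IRX4, OTX1 and DLX3 were those 3 genes, and SIX2 lay just below at 0.497 RPKM. Among the 33 genes whose first window holds coding exon 1, 2 (6.06%) were over 0.5 RPKM, against 13.9% of all such genes.

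**Figure D1:**
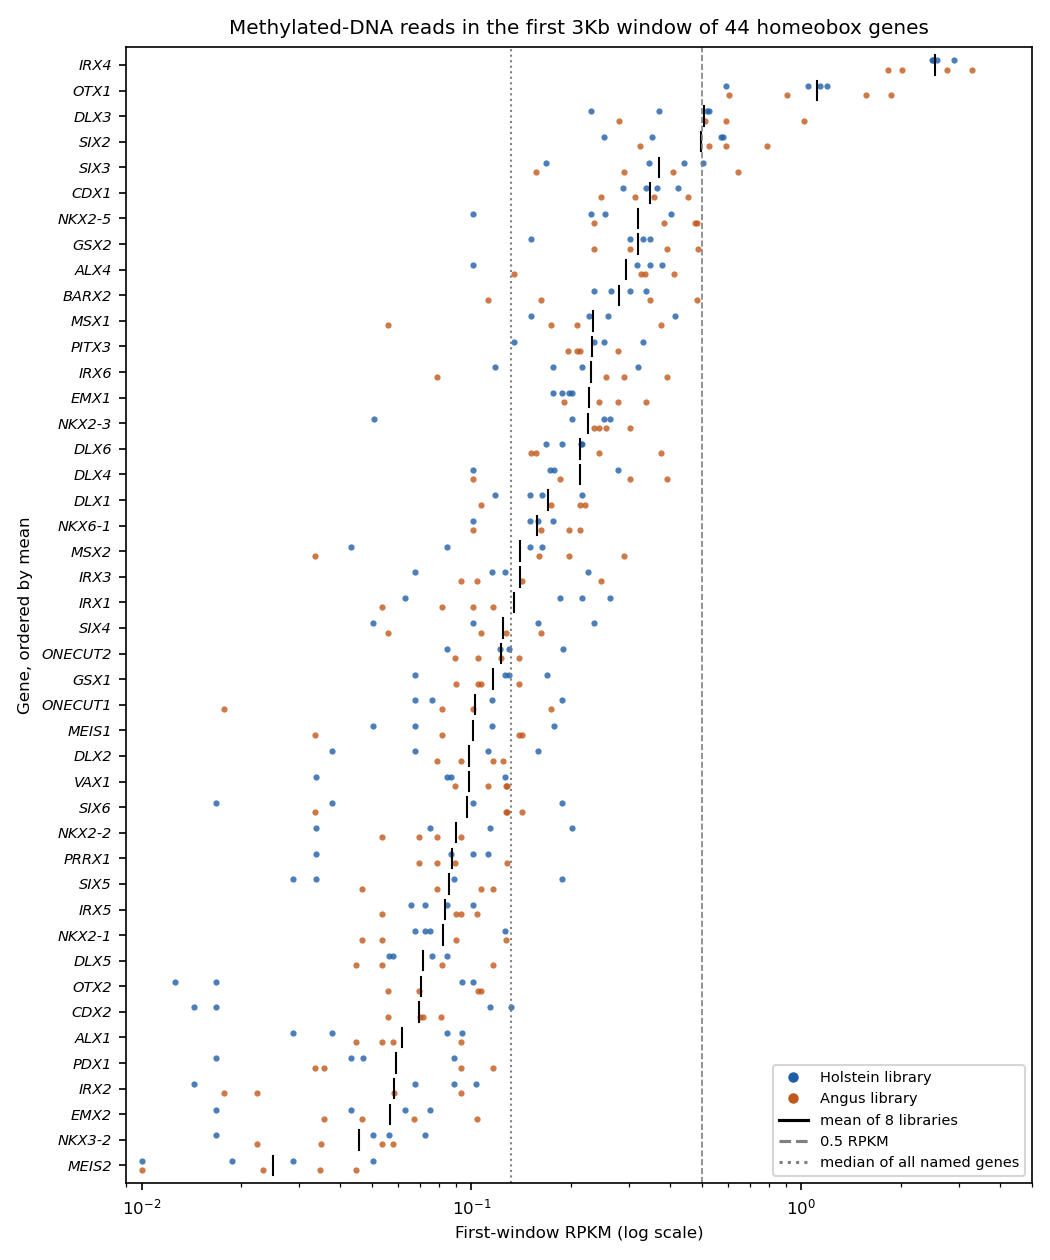
RPKM of the first 3Kb window (horizontal log axis; values under 0.01 are drawn at 0.01) for each of the 44 genes (vertical axis, ordered by mean), with 1 point per library, Holstein in blue and Angus in orange. The black bar is the mean of 8 libraries, the dashed line is 0.5 RPKM and the dotted line is the median of all named genes (0.132 RPKM); IRX4 and OTX1 stand to the right of the other genes and the breeds are mixed within most rows.

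IRX4, an Iroquois factor of the heart ventricle, had the highest first window, at 2.55 ± 0.470 RPKM (SD, n = 8). This window lies on chromosome 20 at 70919918 to 70922917 (UMD v3.1, plus strand) and holds no coding exon. The reads numbered 153, 172, 199 and 310 for the Holstein animals, in the order of their numbers, and 173, 239, 164 and 185 for the Angus animals. The breeds overlapped, with means of 2.62 ± 0.197 RPKM in Holstein and 2.48 ± 0.680 RPKM in Angus cultures (SD, n = 4 each). The remaining IRX4 windows averaged 0.195 RPKM, and the window with its coding exon 1, the fourth, had 0.135 RPKM. The high level at IRX4 was thus at the upstream end of the annotated gene and not at its coding start.

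OTX1, a regulator of forebrain and inner ear development, had 1.11 ± 0.442 RPKM in its first window on chromosome 11 (61476685 to 61479684, plus strand, coding exon 1). Its Holstein libraries had 0.590, 1.20, 1.05 and 1.14 RPKM and its Angus libraries 0.908, 1.56, 0.604 and 1.87 RPKM. The lowest values were those of Holstein 1 and Angus 3, and all 8 libraries were over 0.5 RPKM. DLX3, a factor of hair follicle, tooth and bone formation, had 0.505 ± 0.243 RPKM in the first window on chromosome 19 (37294275 to 37297274). The 8 values ran from 0.231 in Holstein 2 to 1.02 in Angus 4, so that DLX3 was not separated from 0.5 RPKM.

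The next genes in the order were SIX2 (0.497 ± 0.175 RPKM), a factor of kidney progenitors, SIX3 (0.370 ± 0.165 RPKM), a factor of forebrain and eye, and CDX1 (0.348 ± 0.0675 RPKM), a factor of intestinal identity. NKX2-5 (0.321 ± 0.136 RPKM), a cardiac regulator, and GSX2 (0.319 RPKM), a factor of the ventral forebrain, followed. The first window of CDX1 held no coding exon. From DLX3 to GSX2 neighbours differed by less than 1 SD over libraries. The drop from IRX4 to OTX1 and from OTX1 to DLX3 was larger than the SD of either gene.

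At the other end of the order, MEIS2, a TALE-class partner of HOX proteins, had the lowest first window at 0.0251 ± 0.0187 RPKM, with 0 to 4 reads per library. NKX3-2, a regulator of cartilage and axial skeleton, followed with 0.0456 ± 0.0190 RPKM and 1 to 6 reads. EMX2 (0.0565 RPKM) of cerebral cortex and urogenital development, IRX2 (0.0581 RPKM), the pancreatic factor PDX1 (0.0592 RPKM), the craniofacial factor ALX1 (0.0618 RPKM), the intestinal factor CDX2 (0.0693 RPKM) and the forebrain factor OTX2 (0.0702 RPKM) completed the lowest 8. The first windows of CDX2 and OTX2 held coding exon 2 and not coding exon 1. In both Holstein 1 and Angus 4, 12 of the 44 first windows had at most 3 reads. MEIS2 and NKX3-2 differed by about their SD, and from NKX3-2 to OTX2 neighbours differed by less than 1 SD, so that their order was not resolved at this depth.

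By family, the median first window was 0.192 RPKM over 6 DLX genes, 0.124 RPKM over 6 NKX genes, 0.125 RPKM over SIX2 to SIX6 and 0.137 RPKM over 6 IRX genes. The 5 ParaHox genes had a median of 0.117 RPKM, the 6 paired-like genes 0.159 RPKM, MSX1 and MSX2 0.187 RPKM, ONECUT1 and ONECUT2 0.113 RPKM, and MEIS1 and MEIS2 0.0631 RPKM. Every family except the DLX, IRX and paired-like genes had 0 first windows over 0.5 RPKM. Within the paired-like family the spread ran from 0.0618 RPKM in ALX1 to 1.11 RPKM in OTX1, which was wider than the differences between family medians. PRRX1, a factor of limb and dermal mesenchyme, had 0.0874 ± 0.0287 RPKM.

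Other homeobox genes served for comparison, from a list of 74 of which 63 had windows. Their median first window was 0.137 RPKM, and 10 of 63 (15.9%) were over 0.5 RPKM. PKNOX1, a TALE-class factor, had the highest at 1.06 RPKM. Both PROX1 (0.672 RPKM), a lymphatic and lens regulator, and PROX2 (0.792 RPKM) were also over 0.5 RPKM.

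First windows were set against the other windows of the same gene in the 41 genes with at least 2. The first window was below the mean of the others in 24 of 41 genes (58.5%), against 63.3% of all named genes with at least 2 windows. The median log2 difference, first minus other with 0.05 RPKM added to both, was -0.11 for the members and -0.33 for all named genes. Taken per library, the members' median averaged -0.21 ± 0.16 (SD, n = 8) and that of all named genes -0.34 ± 0.05. The members' value per library moved to -0.08 with the median of the other windows in place of their mean. It moved to -0.12 with 0.2 RPKM added and to -0.28 with 0.01 RPKM added. Among genes with 2 to 10 windows, the median difference was 0.00 over 36 members and -0.29 over 13821 named genes. The other windows averaged over 0.5 RPKM in 3 of 41 genes (7.32%) and in 21.1% of all named genes.

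**Figure D2:**
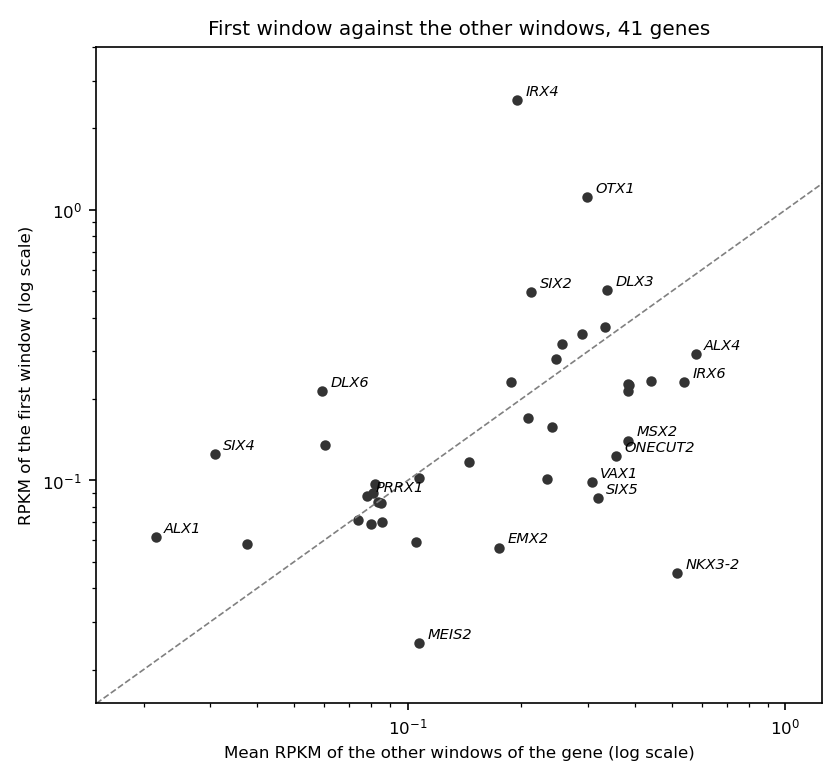
RPKM of the first window (vertical log axis) against the mean RPKM of the other windows of the same gene (horizontal log axis), means of 8 libraries, for the 41 genes with at least 2 windows. Genes below the dashed diagonal, 24 of 41, had a lower first window; NKX3-2 lies farthest below it and IRX4 farthest above it.

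NKX3-2 had the largest step in this direction. Its first window, with coding exon 1, had 0.0456 RPKM and its second, with coding exon 2, had 0.518 ± 0.178 RPKM, a log2 difference of -2.52 ± 0.42 (SD, n = 8). The second window, on chromosome 6 at 113623782 to 113626781, held 12, 34, 53 and 44 reads in Holstein and 61, 58, 34 and 34 reads in Angus libraries. In all 8 libraries the first window was the lower one. SIX5, which lies next to the myotonic dystrophy kinase gene DMPK (-1.46 ± 0.36), and VAX1, a factor of the optic stalk (-1.29 ± 0.41), followed, also in 8 of 8 libraries.

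The opposite order was found in IRX4 (3.41 ± 0.30), OTX1 (1.71 ± 0.43) and DLX6 (1.32 ± 0.69), with the first window higher in 8 of 8 libraries. DLX6, a factor of jaw and limb patterning, reached this difference at a low level, with 0.214 RPKM in the first and 0.0595 RPKM in the other window. The highest levels over other windows were those of ALX4 (0.578 RPKM), a factor of skull and limb, IRX6 (0.538 RPKM) and NKX3-2 (0.518 RPKM). In ALX4 this was a single window starting at 75152857, which does not adjoin the first window (75185857 to 75188856). The windows between them do not carry its name. In ALX4 and IRX6 too the first window was below the others in 8 of 8 libraries.

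Windows with a coding exon were more often over 0.5 RPKM, in the members and in all named genes. Among windows other than the first, 10 of 67 with a coding exon (14.9%) were over 0.5 RPKM, and 6 of 184 without one (3.26%). Over all named genes the shares were 22.5% and 6.29%. In all, 19 of the 295 windows (6.44%) were over 0.5 RPKM, against 11.3% of all windows with a gene name.

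The longer genes, named here after their values were seen, differed in how many windows were over 0.5 RPKM. MEIS2 had 0 of 76 windows over 0.5 RPKM and PRRX1 0 of 26, with a highest PRRX1 window of 0.175 RPKM. ALX1, with 8 windows, had none over 0.0618 RPKM. EMX1 had 2 of 7 windows over 0.5 RPKM, up to 0.916 RPKM. ONECUT2, a liver and neural factor, was over 0.5 RPKM in 4 of 16 windows, all among its last 5 and up to 0.840 RPKM, while its first window had 0.123 RPKM.

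MEIS1, also a HOX partner, had 3 of 50 windows over 0.5 RPKM, among them the highest window of any member. This window, the 34th, lies on chromosome 11 at 64866885 to 64869884 without a coding exon and had 3.69 ± 1.11 RPKM. It held 323, 205, 308 and 489 reads in Holstein and 176, 289, 249 and 249 reads in Angus libraries, and the breeds overlapped. Its highest coverage at a single base was 81 to 269 reads per library, and that of the 33rd window (1.49 RPKM) was 30 to 113, whereas in the other 17 member windows over 0.5 RPKM it reached at most 25. Reads were thus stacked within these neighbouring windows, and whether they came from a repeated sequence was not tested.

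**Figure D3:**
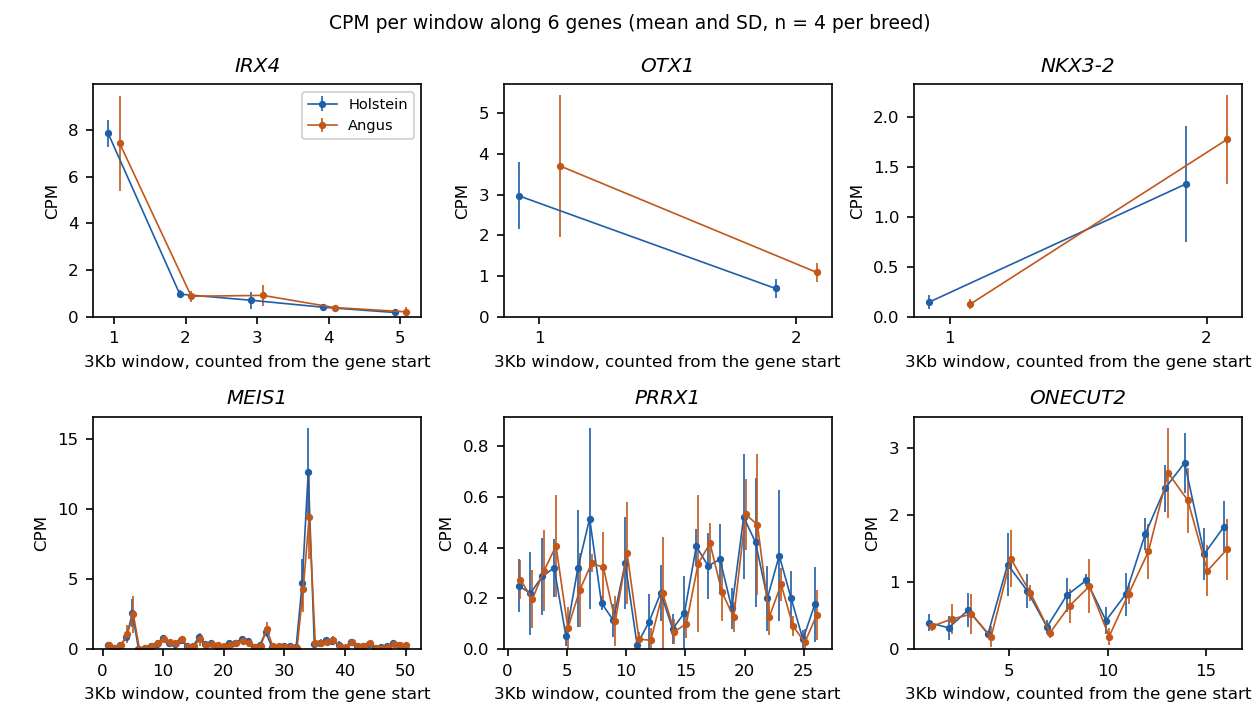
CPM per 3Kb window (vertical axis, each panel with its own scale) by window number from the gene start (horizontal axis) along IRX4, OTX1, NKX3-2, MEIS1, PRRX1 and ONECUT2, as mean and SD of 4 Holstein (blue) and 4 Angus (orange) libraries. The first window is the peak in IRX4 and OTX1 and the low point in NKX3-2, and in MEIS1 the reads are concentrated in windows 33 and 34 in both breeds.

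Several members are neighbours, and their surroundings differed. The ParaHox genes GSX1, PDX1 and CDX2 span 138 kb of chromosome 12, where 4 of 46 windows were over 0.5 RPKM and 0 of the 11 windows of these genes. DLX3 and DLX4, side by side on chromosome 19, had 2 of 5 windows over 0.5 RPKM, while DLX1 with DLX2 and DLX5 with DLX6 had none. The 62 windows from SIX6 to SIX4 on chromosome 10 had a median of 0.0726 RPKM.

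The IRX genes form 2 clusters with unlike surroundings. From IRX1 to IRX4, 1464 kb of chromosome 20, 272 of 488 windows (55.7%) were over 0.5 RPKM. Of the 11 windows of the 3 IRX genes there, 1 was, namely the first window of IRX4. All 28 windows of the span with a gene name, IRX windows included, had 6 over 0.5 RPKM (21.4%) and a median of 0.205 RPKM. The 460 windows without a gene name had 266 (57.8%), so the lower share was not particular to the IRX genes. The median of the span was 0.556 RPKM, with library medians from 0.347 to 0.666 RPKM, whereas IRX1 (0.135 RPKM) and IRX2 (0.0581 RPKM) had low first windows within it. The window just upstream of IRX1 had 1.38 RPKM. The whole of chromosome 20 had 5.50% of windows over 0.5 RPKM, the 1 Mb below the cluster 18.6% and the 1 Mb above it 79.6%, and the cluster ends 1107 kb from the chromosome end. From IRX3 to IRX6 on chromosome 18, 9 of 332 windows (2.71%) were over 0.5 RPKM, against 15.1% of that chromosome. The share was 2.10% in the 1 Mb below this cluster and 8.41% in the 1 Mb above it. The median was 0.155 RPKM both in the span and over the whole chromosome.

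Methylation of the homeobox genes was then compared between Holstein and Angus cultures, the comparison the study was designed for. The medians of first windows were 0.138 ± 0.0427 RPKM in Holstein and 0.124 ± 0.0198 RPKM in Angus cultures (SD, n = 4 each). For all named genes they were 0.138 ± 0.0363 and 0.125 ± 0.0327 RPKM. The groups overlapped within both sets of genes. By single genes, the mean RPKM was higher in Angus than in Holstein cultures in 29 of the 44 member first windows and in 8369 of 26153 first windows of all named genes. These genes share libraries, and these counts carry no test.

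Windows were tested with edgeR's likelihood-ratio test on windows that reached 1 CPM in 4 or more libraries. Of the 295 member windows 38 passed this filter, 8 first windows and 30 others from 21 genes. None of the 38 was called at FDR < 0.1 and FC ≥ 2, and the share called among all 115360 windows tested was 0.231%. The smallest FDR among members was 0.262. edgeR's quasi-likelihood test and DESeq2 also called 0 of the member windows tested. The breeds were separated without overlap on the CPM scale in 0 of 38 member windows, against 1.31% of all windows tested.

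At an unadjusted p < 0.05, 10 of the 38 windows passed (26.3%), 9 of them higher in Angus and 1 higher in Holstein, where the share over all windows tested was 4.94% (2.58% higher in Angus and 2.36% higher in Holstein). The quasi-likelihood test counted 9, with 5157 of all 115360 windows, and DESeq2 7, with 3795 of them. When libraries were scaled by total counts alone, in place of TMM, 0 of the 38 passed, with 3142 of all windows. This scaling moved the median log2 fold change of all windows from 0.00 to 0.14 and that of the members from -0.09 to 0.04 (Holstein against Angus), so the direction of the members' median depended on the scaling. Without Angus 4, 2 of 33 member windows passed at an unadjusted p < 0.05, with 5818 of 109649 windows in all. With 1 CPM or more required in all 8 libraries, 2 of 12 member windows passed, with 3034 of 57210 windows in all. The members' median log2 fold change under that filter was 0.008. After adjustment over all windows tested, none of the 10 passed.

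**Figure D4:**
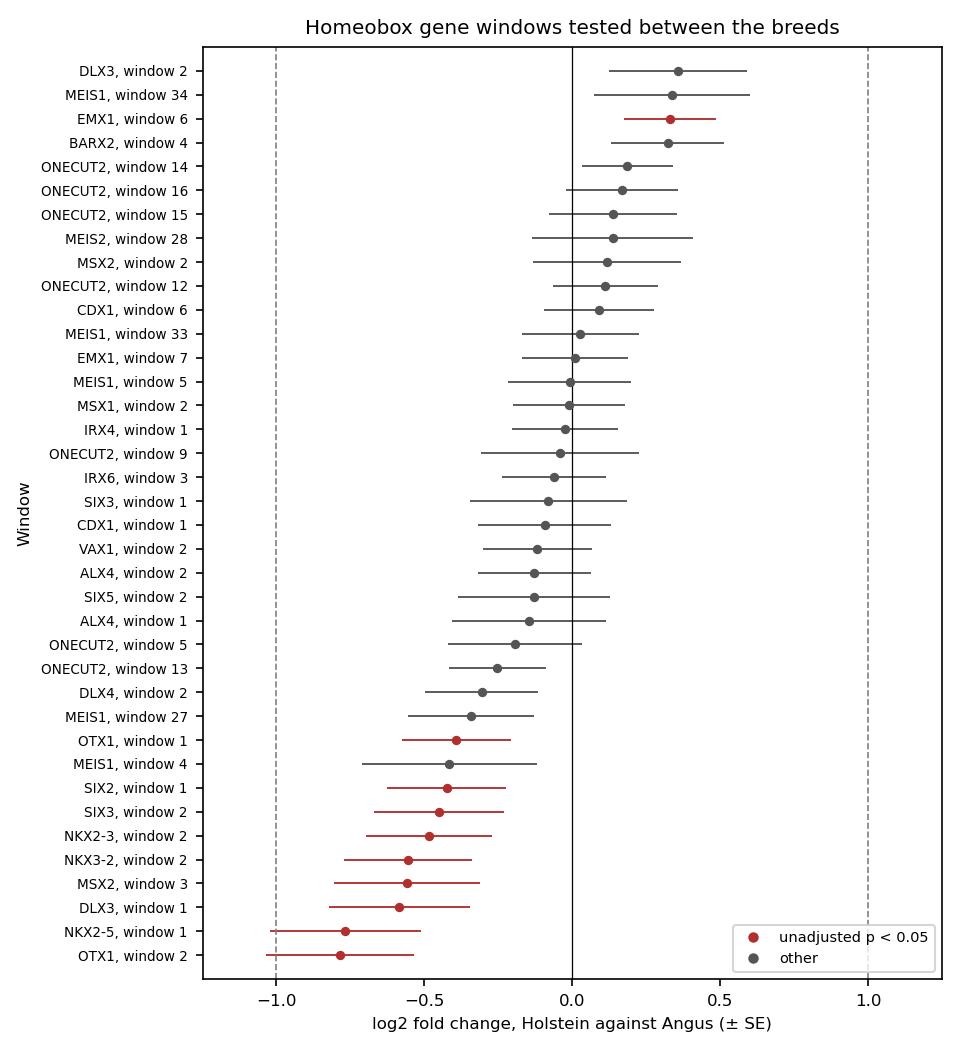
log2 fold change of Holstein against Angus with its SE (horizontal axis) for the 38 member windows tested, ordered by size (vertical axis), from edgeR's likelihood-ratio test. Red points have an unadjusted p < 0.05; 25 of 38 windows lie left of 0, toward Angus, and none reaches the dashed lines at a 2-fold change.

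The genes with these windows were OTX1, NKX2-5, NKX3-2, DLX3, NKX2-3, MSX2, SIX2 and SIX3 toward Angus and EMX1 toward Holstein. The largest difference was in the second window of OTX1 (chromosome 11, 61479685 to 61482684, coding exon 2). It had 9, 16, 27 and 22 reads in Holstein and 33, 36, 22 and 23 reads in Angus libraries, or 0.697 ± 0.238 and 1.09 ± 0.240 CPM. Only Holstein 3 reached into the Angus range. The window reached 1 CPM only in Holstein 3, Angus 1, Angus 2 and Angus 4, so it passed the filter mostly through Angus libraries. The log2 fold change was -0.79 ± 0.25 (SE; FDR = 0.262 in edgeR's likelihood-ratio test and 0.661 in its quasi-likelihood test).

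The first window of NKX2-5, on chromosome 20 at 4820218 to 4823217, had 6, 16, 32 and 27 reads in Holstein and 33, 41, 21 and 27 reads in Angus libraries. The means were 0.742 ± 0.372 and 1.18 ± 0.345 CPM. The breeds overlapped, with Holstein 3 above Angus 1 and Angus 3, and Holstein 4 above Angus 3. The log2 fold change was -0.77 ± 0.25 (SE; edgeR FDR = 0.336). This window too reached 1 CPM only in Holstein 3, Angus 1, Angus 2 and Angus 4. The second window of NKX3-2 had a log2 fold change of -0.56 ± 0.22 (SE; edgeR FDR = 0.660), with Holstein 1 the lowest of the 8 libraries and Angus 3 the lowest of its breed.

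Toward Holstein, the sixth window of EMX1, a factor of the cerebral cortex, had 53, 78, 82 and 129 reads in Holstein and 61, 78, 56 and 46 reads in Angus libraries. It had a log2 fold change of 0.33 ± 0.16 (SE; edgeR FDR = 0.938). Holstein 1 and Angus 2 overlapped.

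**Figure D5:**
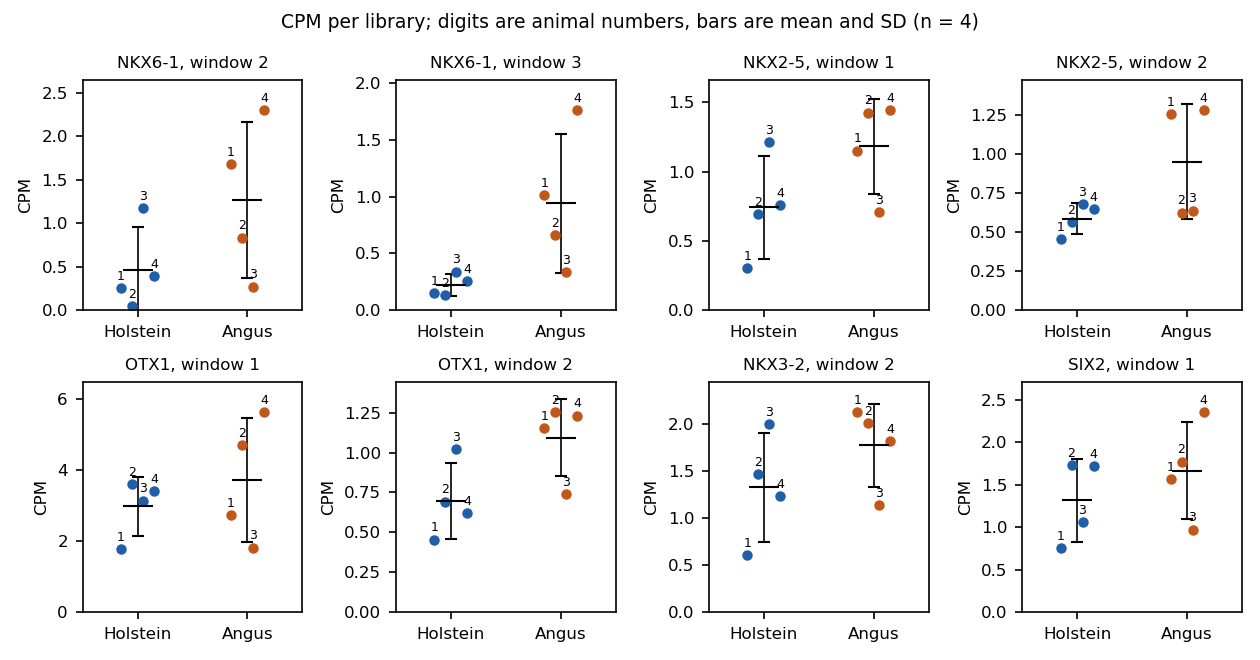
CPM per library (vertical axis, each panel with its own scale from 0) in 8 windows of NKX6-1, NKX2-5, OTX1, NKX3-2 and SIX2, by breed (horizontal axis), with the animal number above each point and bars for mean and SD (n = 4). Angus means were above Holstein means in all 8 windows, which were chosen after their values were seen, and the ranges of the breeds overlap in each.

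Counts summed over the windows of each gene gave more reads per test. Of the 44 genes 29 passed the filter and 15 did not. None of the 29 was called by edgeR's likelihood-ratio test, and 0.0567% of the 19389 genes tested were. At an unadjusted p < 0.05, 6 of the 29 passed (20.7%), all higher in Angus, against 2.08% of all genes tested, of which 1.34% were higher in Angus. With total counts alone 1 of 29 passed, with 136 of all 19389 genes. edgeR's quasi-likelihood test and DESeq2 counted 6 members each, with 339 and 274 of all genes, and called 0 member genes. The 6 genes were NKX2-5, NKX6-1, SIX2, NKX2-3, OTX1 and NKX3-2.

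NKX2-5 had 15, 29, 50 and 50 reads in Holstein and 69, 59, 40 and 51 reads in Angus libraries over its 2 windows. The levels were 0.221 ± 0.0778 RPKM in Holstein and 0.355 ± 0.0991 RPKM in Angus cultures, and Holstein 3 and Holstein 4 were above Angus 3. Its log2 fold change was -0.82 ± 0.22 (SE; FDR = 0.145 in edgeR's likelihood-ratio test and 1.00 in its quasi-likelihood test). SIX2 had 21, 52, 42 and 82 reads in Holstein and 73, 81, 42 and 57 reads in Angus libraries, a log2 fold change of -0.58 ± 0.18 (SE; edgeR FDR = 0.521).

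NKX6-1, a factor of pancreatic beta cells and motor neurons, had the largest difference of the 6. It had 14, 15, 54 and 39 reads in Holstein and 94, 57, 27 and 88 reads in Angus libraries, a log2 fold change of -1.35 ± 0.39 (SE; edgeR FDR = 0.295). Scaled to library size, Holstein 3 was above Angus 2 and Angus 3, and Holstein 4 was above Angus 3. Without Holstein 3, NKX2-5 (FDR = 0.0132) and NKX6-1 (FDR = 0.0183) passed, and without Angus 3 NKX6-1 did (FDR = 0.0567), each by edgeR's likelihood-ratio test.

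None of the NKX6-1 windows passed the CPM filter, and 1 or 2 of them were called when windows were tested without it, under each alternative run without the filter except DESeq2, which gave no adjusted p for either. Without the filter 887821 windows were tested, of which 0.102% were called and 0.0754% were called higher in Angus. Of the 295 member windows 2 were called, the windows 2 and 3 of NKX6-1, both higher in Angus.

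Window 3 (chromosome 6, 101087582 to 101090581, coding exon 3) had 3, 3, 9 and 9 reads in Holstein and 29, 19, 10 and 33 reads in Angus libraries. The means were 0.219 ± 0.0973 and 0.944 ± 0.614 CPM, and Angus 3 (0.336 CPM) fell just under Holstein 3 (0.341 CPM). Its log2 fold change was -2.10 ± 0.33 (SE; edgeR FDR = 2.11e-06). This call was kept under the 11 alternatives that gave an adjusted p, with log2 fold changes from -2.37 to -1.67 and an FDR of at most 0.0125.

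Window 2 (101090582 to 101093581, coding exon 2) had 5, 1, 31 and 14 reads in Holstein and 48, 24, 8 and 43 reads in Angus libraries. On the CPM scale Holstein 3 was above Angus 2 and 3 and Holstein 4 above Angus 3, so the breeds overlapped. The log2 fold change was -1.43 ± 0.28 (SE; edgeR FDR = 0.00121). Its call was lost with total counts alone (FDR = 0.257), without Holstein 2 (FDR = 0.388), without Holstein 4 (FDR = 0.206) and without Angus 4 (FDR = 0.328), all in edgeR's likelihood-ratio test. The first window of NKX6-1, with coding exon 1, had 6, 11, 14 and 16 reads in Holstein and 17, 14, 9 and 12 reads in Angus libraries and was not called (log2 fold change -0.31 ± 0.33, SE).

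The other homeobox genes were read from the same fit. Of their 155 windows tested 0 were called, and at an unadjusted p < 0.05 4 were higher in Holstein and 7 in Angus (7.10%). Their median log2 fold change was 0.00, beside -0.09 for the members and 0.00 for all windows tested.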

How the data were processed

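MIRA-Seq libraries of dermal fibroblasts from 4 Holstein and 4 Angus heifers were analysed, grouped by the breed in the labels; each library is 1 animal. The authors called bases with CASAVA 1.7, aligned reads to UMD v3.1 with NextGENe 2.3.4 and deposited, per library, raw read counts in consecutive 3Kb windows, without normalization. The deposited coverage (lowest, highest and mean per window) is an unscaled signal and was used only to look for stacked reads. The handling of duplicate and multiply mapped reads is not given in the sources used here, and reads in repeats depend on it.

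Windows carry at most 1 gene name, so overlapping genes could not be resolved. CPM and RPKM were computed from the counts with the total over windows as library size; windows that span scaffold ends (1146) were left out of levels. Counts per window, and summed per gene, were fitted in edgeR 4.0.16 (R 4.3.3) with TMM and a likelihood-ratio test of Holstein against Angus, after the study's methods, for rows that reached 1 CPM in 4 or more libraries. Benjamini-Hochberg adjustment ran over all rows tested, and a call needed FDR < 0.1 and FC ≥ 2. The fit was tested on simulated data. Levels were computed in Python 3.11.15 with pandas 2.3.3. Other scalings, filters and thresholds, DESeq2 1.42.0, the quasi-likelihood test, a block for the animal number and the omission of single libraries were tried as alternatives. Those that combine another choice with no CPM filter were chosen after seeing the data. The pull-down has no input library here, and the level given for 3 reads in a window covers counting error only.

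The members and gene lists were chosen with earlier results of these data known. Named genes were any member called, the 8 with the highest and the 8 with the lowest first windows, the 3 with the largest and the 3 with the smallest first-minus-other difference, and the 3 with the highest other windows; windows that passed only an unadjusted p, PRRX1, MEIS1, ONECUT2 and the comparison genes were named after their values were seen. Same-numbered animals of the 2 breeds deviated from their breed means with a mean correlation of -0.0023 (-0.157 to 0.139). No pairing by number was seen in these few values, and the labels give none.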

Additional observations from a re-analysis of the deposited data

How the results depend on the processing

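The count of windows called among all windows was 267. It was 425 with no fold change minimum, 141 with edgeR's quasi-likelihood test, 141 with DESeq2, 905 without the CPM filter, 163 with 1 CPM or more required in all 8 libraries, 153 on placed chromosomes only, and 145 to 564 when 1 library was left out. Without the CPM filter it was 501 with the quasi-likelihood test, 41 with DESeq2, 517 with total counts alone, and 614 with the replicate block. Without the filter and 1 library it was 1292, 715, 560 and 450 without Holstein 1 to 4 and 1118, 774, 644 and 848 without Angus 1 to 4. Member windows called were 0 with the filter. Without it they were 2, and 2 with the quasi-likelihood test, 0 with DESeq2 and 1 with total counts alone. Also without the filter, they were 2 with the replicate block and 1 to 2 with 1 library left out. Genes called among all were 11, and 20 with no fold change minimum, 0 with the quasi-likelihood test (339 at an unadjusted p < 0.05), 6 with DESeq2, 30 without the filter, 6 with 1 CPM or more required in all 8 libraries, and 6 to 17 with 1 library left out. Member genes called were 0, and 0 to 2 with 1 library left out. The mean over genes in place of the median first window was 0.244 RPKM; its construction gives IRX4 and OTX1 more weight. For the other changes the cause was not tested. The animal number as a replicate block gave 346 windows and 12 genes called and 0 members with the filter, and changed no call of a member. The labels give no pairing of the animals by number, so the block has no stated basis in the design.

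Among 255 alternative values of 18 named windows and genes 0 turned direction, 248 stayed on their side of the threshold, 3 passed it and 4 lost it. The share of members over 0.5 RPKM ran from 4.55% to 9.09% over library sizes and left-out libraries, and was 18.2% at a limit of 0.3 RPKM. The CPM filter limited the window tests: 225 of the 295 member windows had a CPM of 1 or more in 0 libraries and were tested only without it.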
